A study of Rattus norvegicus with 22 samples.

Results

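Dchs1, the Fat cadherins, the Celsr cadherins and the kinase Fjx1 were followed in the nucleus accumbens (NAc) of 22 male Wistar rats. The group comprised 9 gene symbols matched exactly in the count files, which list 17310 symbols. Of these, 8 were found, Celsr1 was not analysed here, and 7 passed the filter on low counts in either experiment. Fat2 did not pass it. The group was assembled around Dchs1, whose level had been noted to be higher after EtOH in experiment 1 and lower after EtOH in experiment 2. The EtOH contrasts of Dchs1 are therefore described below without a test, and the remaining members were read from a fit over all genes.

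Experiment 1 set 5 rats that could drink 6 v/v % EtOH beside water at any time over 8 weeks against 5 controls with water alone. In experiment 2 every one of the 12 rats was an EtOH drinker, offered 6% EtOH during the 4 weeks that preceded gavage and again during the 2 weeks that followed it. The gavage itself lasted 3 weeks, 2 times per day, and delivered 2.5 g/kg EtOH (30 v/v %) to 6 rats and water to the other 6, so no group of experiment 2 was free of EtOH. PolyA+ RNA of core and shell together was sequenced from each rat, without strand information in experiment 1 and with it in experiment 2, and the experiments were therefore taken separately. All rats were outbred and of 1 sex, and the tissue holds all cell types of the region.

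Fat and Dachsous proteins are very large cadherins. On neighbouring cells, Dchs1 and Fat4 bind each other as ligand and receptor, and Fjx1, a kinase of the Golgi, phosphorylates their cadherin domains and tunes that binding. The pair orients cells within a tissue plane, guides migrating neurons and feeds into Hippo signalling, which controls growth. Celsr proteins, in contrast, bind their own kind across cell contacts, belong to the adhesion G protein-coupled receptors, and act in core planar cell polarity together with Vangl and Fzd proteins. In the brain, Celsr3 is known for axon tracts and Celsr2 for dendrites and the cilia of ependymal cells.

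Promoters are shown for members whose levels moved together among the rats of experiment 2 (Celsr2, Celsr3 and Fjx1), and for Fat4, which did not move with them. They are taken from RefSeq on the GRCr8 assembly, which is not the build of the count files, and run from 250 bases before to 50 after the annotated start. Of the 9 members, 7 had a promoter in that table, and Dchs1 was not among them. Capitals mark GGGCGG on either strand, the letters of the GC box bound by Sp1-type factors.
Celsr2, chr2:198741333-198741632, minus strand: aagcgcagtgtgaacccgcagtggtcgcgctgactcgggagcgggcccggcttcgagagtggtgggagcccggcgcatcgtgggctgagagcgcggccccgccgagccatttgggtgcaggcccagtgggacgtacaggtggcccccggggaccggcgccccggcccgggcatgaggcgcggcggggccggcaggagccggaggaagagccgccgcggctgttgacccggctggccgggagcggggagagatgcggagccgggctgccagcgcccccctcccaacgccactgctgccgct
Celsr3, chr8:118408886-118409185, plus strand: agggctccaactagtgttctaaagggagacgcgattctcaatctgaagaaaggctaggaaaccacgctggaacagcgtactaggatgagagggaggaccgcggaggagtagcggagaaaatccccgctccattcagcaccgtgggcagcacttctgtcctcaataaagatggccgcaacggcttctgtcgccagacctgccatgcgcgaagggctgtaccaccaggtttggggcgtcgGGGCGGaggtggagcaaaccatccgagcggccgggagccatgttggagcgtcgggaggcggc
Fjx1, chr3:109231275-109231574, minus strand: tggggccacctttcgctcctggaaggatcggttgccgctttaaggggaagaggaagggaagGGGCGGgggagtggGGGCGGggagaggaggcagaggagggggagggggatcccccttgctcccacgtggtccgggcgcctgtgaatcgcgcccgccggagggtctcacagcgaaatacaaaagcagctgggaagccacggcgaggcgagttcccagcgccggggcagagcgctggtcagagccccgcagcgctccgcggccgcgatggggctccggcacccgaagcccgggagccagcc
Fat4, chr2:123855039-123855338, plus strand: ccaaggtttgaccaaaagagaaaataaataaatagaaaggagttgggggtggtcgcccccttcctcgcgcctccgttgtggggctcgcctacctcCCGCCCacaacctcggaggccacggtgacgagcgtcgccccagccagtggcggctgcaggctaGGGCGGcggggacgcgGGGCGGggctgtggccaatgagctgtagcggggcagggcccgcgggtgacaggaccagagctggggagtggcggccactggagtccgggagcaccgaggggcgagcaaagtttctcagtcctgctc

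The promoter of Celsr2 was 76.3% G and C, and it held 37 CG pairs and no GC box. Those of Fjx1 and Celsr3 were 71.0% and 60.3% G and C and held 2 and 1 GC boxes. Fat4, at 66.7%, held 3 GC boxes, so the letters did not separate it from the members that moved together. The windows of Fat1 and Fat3, which did not move with those members either, held 0 GC boxes, as did that of Celsr2. The median over all 33469 promoters of the table was 51.7%, and 33.1% of them held a GC box. Neither TATAAA (in 14.2% of all promoters, either strand) nor GGAATG (14.2%), the letters bound by Tead factors of the Hippo pathway, occurred in a member's window. CACGTG, found in 6.42% of all promoters, occurred in that of Fjx1.

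Reads on genes ranged from 2962291 to 5247386 per rat in experiment 1 and from 6713617 to 8765472 in experiment 2. Levels are given as CPM, the reads of a gene relative to a TMM-scaled library of 1e+06 reads, within an experiment, and they were not compared between genes, because no transcript lengths were used. Outside reads are those that htseq-count, which tallied reads per gene, assigned to no feature. Its options are not given, so whether some lie within annotated genes, as in introns, is not known. The share of outside reads is their percentage of those plus the reads on genes. It was 48.4% to 51.1% in experiment 1 and 46.1% to 58.0% in experiment 2. Of 11 marker symbols of striatal projection neurons, the main neurons of the NAc, 10 were listed and none was at 0 in all rats. The 11 symbols include an old and a new name of the same gene.

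Dchs1, the ligand of the pair, was higher in every EtOH-drinking rat of experiment 1 than in every control. Its level was 55.6, 54.5, 65.6, 57.1 and 65.0 CPM in the 5 water rats, and 71.6, 70.9, 90.2, 96.1 and 77.0 CPM in the 5 EtOH rats. The groups did not overlap, with means of 59.5 ± 5.31 and 81.2 ± 11.4 CPM (SD, n = 5 each). Its log2 fold change, with its standard error (SE), was 0.44 (SE 0.10), as a description only, since this contrast chose the gene. Among all 8655 genes tested, 0.439% were higher in every EtOH rat than in every control, and 0.404% were lower.

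Of the 11 marker lists, only those of neuroblasts and of oligodendrocyte precursors had sums that separated the groups of experiment 1. They hold Dlx1, Dcx and Cd24 (neuroblasts) and Pdgfra (precursors). The paper ranks these genes among the 10 with the lowest P-value for this contrast, so the separation of the sums is description only. Neuroblast markers, of which 8 of 9 were listed and none was at 0 in all rats, summed to 241 to 301 CPM in water rats and 308 to 425 CPM in EtOH rats. Markers of oligodendrocyte precursors, with all 5 listed, summed to 372 to 416 and 419 to 500 CPM. After subtraction of group means, the level of Dchs1 and the neuroblast sum had a Pearson's r of 0.82 over the 10 rats (exact permutation within groups, two-sided p = 0.0226, adjusted p = 0.406 over 84 pairs of member and measure). Spearman's rho was 0.67 (exact permutation p = 0.104), and r was 0.52 without the 2 rats farthest from the median of the sum, so the relation rests on them. Over the rats of experiment 2 the sign was opposite, with r = -0.67 (exact permutation p = 0.0329, adjusted p = 0.184) and rho = -0.53 (exact permutation p = 0.106). In experiment 1, r with Dchs1 was also 0.61 for the cortical neuron sum and -0.64 for the striatal projection neuron sum (exact permutation p = 0.0501 and 0.0656, adjusted p = 0.406 for both). For the precursor sum, r with Dchs1 was 0.14 (exact permutation p = 0.753, adjusted p = 0.854) and rho was 0.16 (exact permutation p = 0.703). The part of these cell types in the level of Dchs1 was not tested further, and more cells of a type cannot be told apart from more RNA per cell in this tissue.

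**Figure D1:**
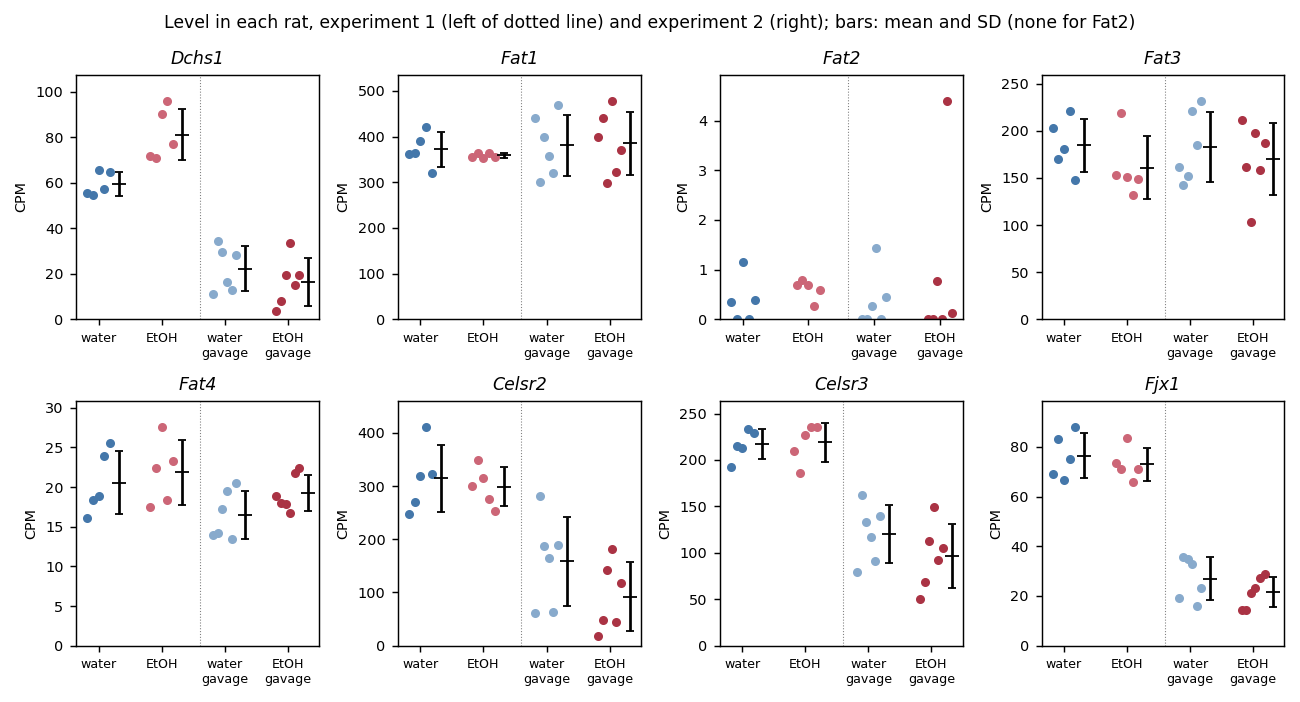
Level of the 8 listed members in each rat in CPM (vertical axis, from 0, with its own scale for each gene), by group; points are rats, and black bars are the mean and SD, left out for Fat2, which is near 0. In experiment 1 Dchs1 of EtOH rats is at or above 70.9 CPM and that of water rats at or below 65.6 CPM, while in experiment 2 Dchs1, Celsr2, Celsr3 and Fjx1 spread widely in both gavage groups.

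The receptors showed no such separation in experiment 1. Fat4, the partner of Dchs1, had 16.1, 18.4, 18.8, 23.9 and 25.6 CPM in water rats and 17.5, 22.4, 27.6, 18.4 and 23.3 CPM in EtOH rats. These ranges overlapped almost entirely, and the log2 fold change was 0.09 (SE 0.16; edgeR's quasi-likelihood test, adjusted p = 0.983). Fat1, which acts on the actin skeleton at cell contacts, lay between 321 and 421 CPM in water rats and within the much narrower range of 353 to 365 CPM in EtOH rats. Fat3, known for shaping the dendrites of retinal neurons, had a median of 181 CPM in water rats and 151 CPM in EtOH rats. Here 1 EtOH rat, replicate 2 with 219 CPM, stood apart from the other 4, at 132 to 153 CPM. The log2 fold change of Fat3 was -0.19 (SE 0.13; edgeR's quasi-likelihood test, adjusted p = 0.914), and it was -0.33 without that rat.

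The Celsr cadherins and Fjx1 were also level between the groups of experiment 1 within the spread of the rats. Celsr2 had 248, 271, 320, 411 and 323 CPM in water rats and 299, 349, 315, 276 and 254 CPM in EtOH rats. Celsr3 had a mean of 217 ± 16.2 CPM (SD, n = 5) in water rats and 219 ± 20.8 CPM (SD, n = 5) in EtOH rats. The kinase Fjx1 followed, with 76.4 ± 9.08 CPM (SD, n = 5) and 73.0 ± 6.59 CPM (SD, n = 5). For Celsr3 the log2 fold change was 0.01, and 2 standard errors either way reached from -0.14 to 0.17. The same span was -0.31 to 0.16 for Celsr2 and -0.25 to 0.12 for Fjx1.

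Of the 6 members tested other than Dchs1, 0 passed an adjusted p of 0.05 in experiment 1 by edgeR's quasi-likelihood test, against 0% of all 8655 genes. None of the 6 had an unadjusted p under 0.05, which 5.58% of all genes had, and DESeq2 also called 0 of them. Their fold changes went in both directions, with 4 lower and 2 higher after EtOH, where 49.5% of all genes were higher.

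Fat2, best known from granule cells of the cerebellum, was at the limit of detection in both experiments. It had 0 to 6 reads per rat in experiment 1, with 2 of 10 rats at 0, and 0 to 36 reads per rat in experiment 2, with 6 of 12 at 0. A count of 0 still allows up to 3 reads, counting error only. The 36 reads came from EtOH gavage replicate 5, the next highest count was 12, in water gavage replicate 4, and no fold change is given.

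In experiment 2 the picture of Dchs1 differed. After water gavage its level was 11.3 CPM in the lowest rat, 22.4 CPM in the median and 34.5 CPM in the highest rat. After EtOH gavage the corresponding values were 3.48, 17.3 and 33.7 CPM. The groups overlapped over most of their range, and the highest rat exceeded the lowest 9.91-fold, against 1.76-fold in experiment 1. Its log2 fold change was -0.42 (SE 0.45), again as a description. Of the 6 EtOH gavage rats, 5 lay below the mean of the water gavage rats and 1 above.

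Celsr2 spread even further among the rats of experiment 2. The water gavage rats had 61.8 to 281 CPM with a median of 176 CPM, and the EtOH gavage rats 18.6 to 181 CPM with a median of 82.5 CPM, a 15.2-fold range overall. The range in experiment 1 had been 1.66-fold. Celsr3 reached from 79.2 to 162 CPM (median 125) after water gavage and from 50.3 to 149 CPM (median 99.2) after EtOH gavage. Fjx1 reached from 16.02 to 35.6 CPM (median 28.0) and from 14.3 to 28.8 CPM (median 22.0). All 3 had a lower mean after EtOH gavage, and in all 3 the groups overlapped widely.

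The fold changes of these members carried correspondingly large errors. Celsr2 had a log2 fold change of -0.78 (SE 0.52; edgeR's quasi-likelihood test, adjusted p = 0.675). Celsr3 had -0.32 (SE 0.25), and Fjx1 had -0.32 (SE 0.25), both at the same adjusted p. The unadjusted p was 0.153 for Celsr2, 0.221 for Celsr3 and 0.216 for Fjx1 in the model over all genes by edgeR.

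**Figure D2:**
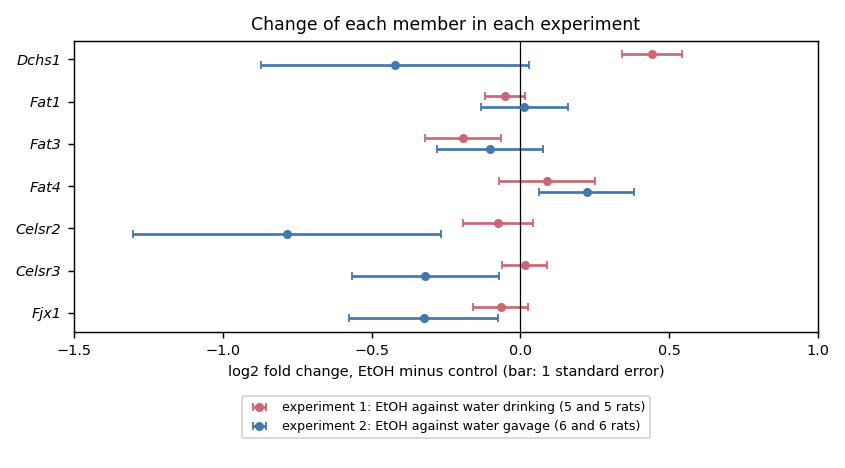
Log2 fold change (horizontal axis, EtOH minus control) of the 7 tested members, in red for experiment 1 and in blue for experiment 2; bars are 1 standard error of the edgeR fit. Errors of Dchs1, Celsr2, Celsr3 and Fjx1 are several times wider in experiment 2, while those of Fat4 are alike in both.

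Fat1, Fat3 and Fat4 ranged less widely in experiment 2, although Fat3, at 2.25-fold from lowest to highest rat, came near Fjx1, at 2.48-fold. Fat1 lay between 300.4 and 469 CPM after water gavage and between 298 and 478 CPM after EtOH gavage, with means of 381 ± 66.7 and 385 ± 68.8 CPM (SD, n = 6 each). For Fat3 the ranges were 143 to 232 CPM (median 173) and 103 to 212 CPM (median 175). Fat4 had 13.5 to 20.5 CPM with a median of 15.7 CPM after water gavage and 16.7 to 22.4 CPM with a median of 18.4 CPM after EtOH gavage. All 6 EtOH gavage rats lay above the water gavage mean of Fat4, but 3 of the 6 water gavage rats lay within their range. The log2 fold change of Fat4 was 0.22 (SE 0.16; edgeR's quasi-likelihood test, adjusted p = 0.675). That of Fat1 was 0.01 (SE 0.15; adjusted p = 0.966 by edgeR), and that of Fat3 was -0.10 (SE 0.18; adjusted p = 0.777 by edgeR).

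Again 0 of the 6 members tested other than Dchs1 passed an adjusted p of 0.05 in edgeR's test in experiment 2, against 0% of the 8655 genes. None had an unadjusted p under 0.05, compared with 1.33% of all genes, and DESeq2 called 0 of the 6. Here too the fold changes of 4 were below 0 and those of 2 above it, beside 50.1% of all genes above 0. No member had groups that did not overlap in experiment 2, where 0% of all genes were higher and 0.0116% lower in that way. In a single fit of all 4 groups, the effects of the experiments on these 6 members did not differ past an adjusted p of 0.05 (edgeR, adjusted p from 0.813 to 0.891). The errors were wide, and the largest difference among the 6, that of Celsr2, was -0.70 (SE 0.61), so this is no sign that the effects were alike. Over all 8176 genes tested in both experiments, 0% passed and 1.88% had an unadjusted p under 0.05. The controls and the libraries of the experiments differ, so that comparison is of unlike contrasts.

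The width of the spread differed among the members by degrees. The SD of log2 CPM within groups in experiment 2 was 0.93 for Dchs1 and 1.09 for Celsr2, larger than or equal to that of 93.9% and 96.9% of the genes tested. Celsr3, at 0.48, and Fjx1, at 0.46, stood at 72.6% and 70.2%. Fat1 (0.26), Fat3 (0.33) and Fat4 (0.22) were at or below the median of all genes, 0.34. In experiment 1 the same SD was 0.17 for Dchs1 and 0.23 for Celsr2, where the median of all genes was 0.16. There Fat4 (0.27) and Fat3 (0.25) had the widest spread among the members.

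The 4 members with the widest spread in experiment 2 moved with the share of outside reads. The 4 rats with the highest shares were EtOH gavage replicates 1 (58.0%) and 2 (56.4%) and water gavage replicates 1 (54.5%) and 5 (52.8%). These were exactly the 4 rats with the lowest Dchs1, the 4 with the lowest Celsr3 and the 4 with the lowest Fjx1, and 3 of them were among the 4 with the lowest Celsr2. For Fat1 the overlap was 1 rat, for Fat3 it was 0 and for Fat4 it was 2. The share was 46.1% to 54.5% after water gavage and 49.8% to 58.0% after EtOH gavage.

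After subtraction of group means, the level of Dchs1 fell with the share over the 12 rats, with a Pearson's r of -0.89 (exact permutation within groups, p = 0.000353, adjusted over all genes tested p = 0.0014). For Celsr3 r was -0.92 (exact permutation p = 0.000191, adjusted p = 0.000988), for Fjx1 -0.91 (exact permutation p = 0.000538, adjusted p = 0.00183) and for Celsr2 -0.84 (exact permutation p = 0.00149, adjusted p = 0.00377). Spearman's rho was -0.85 for Dchs1 (exact permutation p = 0.00183), -0.80 for Celsr3 (p = 0.00549), -0.83 for Fjx1 (p = 0.003) and -0.74 for Celsr2 (p = 0.0127). Without the 2 rats farthest from the median share, r was still -0.79, -0.83, -0.86 and -0.73 in the same order (exact permutation p = 0.0184, 0.00706, 0.0116 and 0.0216). In edgeR's fit with the share as a term, Celsr2 fell by 0.29 and Dchs1 by 0.25 on the log2 scale per percentage point of the share (adjusted p = 0.000146 and 8.8e-05 over all genes), with standard errors of 0.05 and 0.04. By that test 33.9% of all genes had a slope below 0 and 33.9% one above 0.

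**Figure D3:**
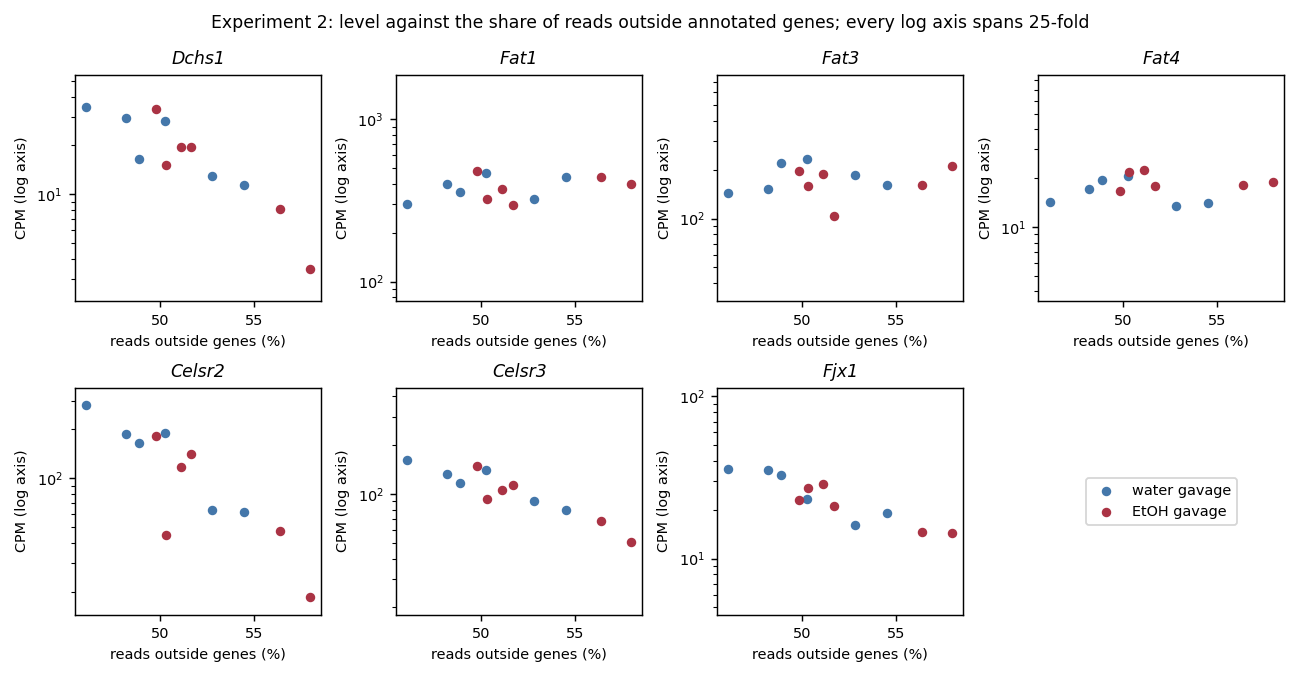
Level of each tested member in CPM (vertical axis) against the share of outside reads in percent (horizontal axis, labelled as reads outside genes). The vertical log axis has the same relative span in every panel. Points are the 12 rats of experiment 2, with water gavage in blue and EtOH gavage in red. Dchs1, Celsr2, Celsr3 and Fjx1 slope downward through both groups, and Fat1, Fat3 and Fat4 lie flat.

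The Fat cadherins did not follow. Fat1 had an r of 0.34 with the share (exact permutation p = 0.299, adjusted p = 0.351), and Fat3 one of 0.23 (exact permutation p = 0.508, adjusted p = 0.559). Fat4, the receptor of Dchs1, had -0.26 (exact permutation p = 0.413, adjusted p = 0.467), and the corresponding rho values were 0.24, 0.29 and -0.10 (exact permutation p = 0.468, 0.377 and 0.761). Such movement was common in experiment 2, since 33.1% of all tested genes fell and 32.8% rose with the share at an adjusted p of 0.05. The 4 of 7 members that fell are to be read against that background, and nothing particular to the family is read from them. Over all tested genes, with group means removed, the first principal component held 73.2% of the variance in experiment 2 and 24.3% in experiment 1.

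In experiment 1, where the share varied little, 0 of 7 members and 0% of all genes moved with it at an adjusted p of 0.05 in either direction. The lowest r values of members were those of Fat4 at -0.64 (exact permutation p = 0.0626, adjusted p = 0.597), Celsr2 at -0.63 (exact permutation p = 0.0869, adjusted p = 0.642) and Fjx1 at -0.60 (exact permutation p = 0.0951, adjusted p = 0.649). Their rho values were -0.58, -0.66 and -0.66 (exact permutation p = 0.105, 0.0614 and 0.0631), and r shrank to -0.34, -0.37 and -0.37 without the 2 rats farthest from the median share. Dchs1 had an r of 0.18 with the share in that experiment (exact permutation p = 0.609, adjusted p = 0.918).

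**Figure D4:**
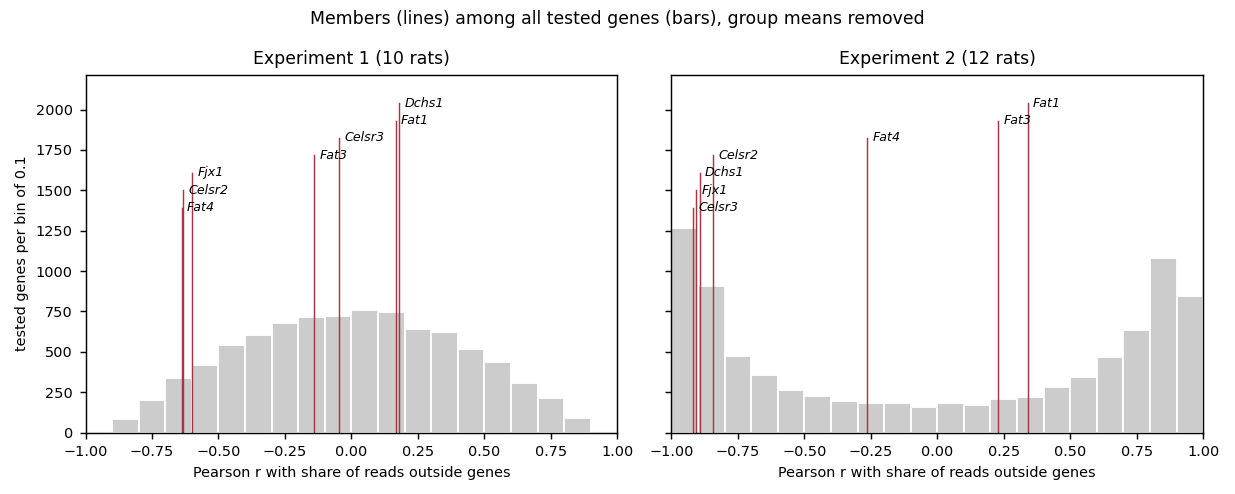
Number of tested genes per bin (bars) by their Pearson's r with the share of outside reads (horizontal axis), group means removed. Red lines are at the 7 members. In experiment 2 the genes pile up at both ends, with Celsr3, Fjx1, Dchs1 and Celsr2 in the left pile and Fat4, Fat3 and Fat1 in the sparse middle, while experiment 1 shows a single hump.

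The sign of the Dchs1 value in experiment 2 turned once the share entered the fit. With the share as a covariate its log2 fold change was 0.13 (SE 0.24), against -0.42 without it. Leaving out EtOH gavage replicates 1 and 2, the 2 rats with the most outside reads (a setting chosen after seeing the data), gave -0.0093 (SE 0.35). Without replicate 1 alone it was -0.20, and without water gavage replicate 2, the rat with the highest Dchs1, it was -0.25. Leaving out EtOH gavage replicate 2 gave -0.28, and EtOH gavage replicate 4 gave -0.75. In experiment 1 the value stayed between 0.38 and 0.49 whichever rat was left out.

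Celsr3 and Fjx1 likewise changed sign with the share as a covariate, to 0.026 and 0.040, and Celsr2 went from -0.78 to -0.036. Fat4, in contrast, had 0.28 (SE 0.16) in that fit. With the 2 rats left out, Celsr2 had -0.37, Celsr3 -0.06 and Fjx1 -0.10, and Fat4 had 0.26. The share was measured, not set by the design, and it was uneven between the gavage groups. The 2 highest shares both fell in the EtOH gavage group, so the parts of share and gavage cannot be fully told apart in these fits.

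Reads of the members relative to Fat1 reads of the same rat need no normalization. There too Dchs1, Celsr2, Celsr3 and Fjx1 ranged most widely in experiment 2. In experiment 1 there were 68.5 to 101 Celsr2 reads per 100 Fat1 reads, and in experiment 2 there were 4.64 to 93.7. Dchs1 had 13.6 to 26.3 reads per 100 Fat1 reads in experiment 1 and 0.871 to 11.5 in experiment 2. Celsr3 ranged 4.29-fold and Fjx1 3.6-fold among the rats of experiment 2. Fat3 had 36.0 to 59.9 and 34.6 to 61.8 reads per 100 Fat1 reads, and Fat4 had 4.46 to 7.97 and 3.17 to 6.74, nearly the same ranges in both experiments. All 12 rats of experiment 2 had fewer Dchs1 reads per 100 Fat1 reads than any rat of experiment 1. The same held for Fjx1, with 3.30 to 11.9 in experiment 2 and 17.1 to 27.4 in experiment 1. What share of all genes separates in this way was not computed. Library type, sequencer model, read length and treatment differ between the experiments and cannot be told apart in that contrast.

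**Figure D5:**
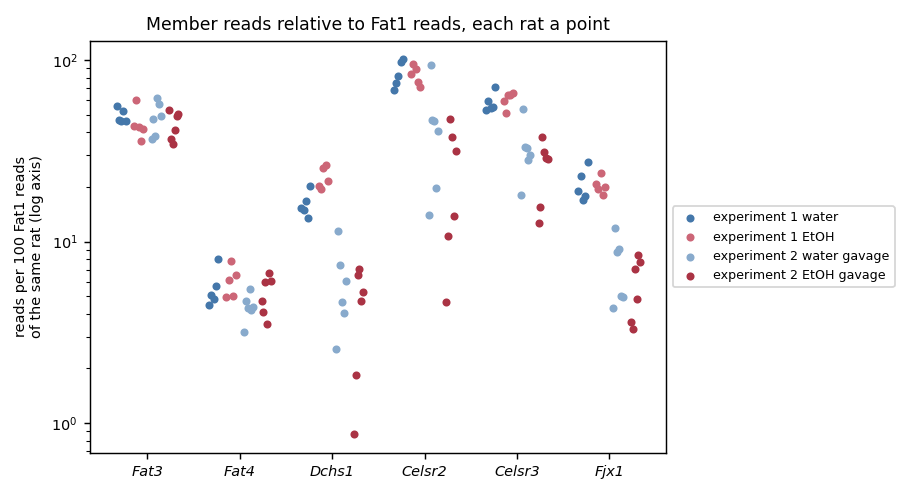
Reads of 6 members per 100 Fat1 reads of the same rat (vertical log axis), with each rat a point and groups side by side. Fat3 and Fat4 form level bands through all 4 groups, whereas Dchs1, Celsr2, Celsr3 and Fjx1 are lower and more scattered in experiment 2.

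Within experiment 2, Dchs1 also moved with Celsr3, at a Pearson's r of 0.98 over the 12 rats with group means removed (exact permutation p = 5.79e-06, adjusted over all genes p = 0.000124, rho 0.97 with exact permutation p = 2.51e-05). For Celsr2 r was 0.93 (exact permutation p = 1.93e-05, adjusted p = 0.000227, rho 0.94 with exact permutation p = 6.37e-05), and for Fjx1 0.72 (exact permutation p = 0.00972, adjusted p = 0.0173, rho 0.67 with exact permutation p = 0.0273). Without the 2 rats farthest from the median of Dchs1, r was 0.98, 0.86 and 0.62. Its receptor Fat4 had an r of 0.13 (exact permutation p = 0.654, adjusted p = 0.697, rho 0.01 with exact permutation p = 0.973). Among all other genes, 33.0% were correlated with Dchs1 above 0 and 33.1% below 0 at an adjusted p of 0.05, so this company was wide. In experiment 1 no member passed that threshold, 0% of genes did, and r with Dchs1 was 0.01 for Celsr2, 0.58 for Celsr3 and -0.62 for Fat3 (exact permutation p = 0.985, 0.117 and 0.0756, adjusted p = 0.999, 0.77 and 0.743, with rho of 0.10, 0.64 and -0.45 at exact permutation p = 0.784, 0.0858 and 0.202).

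The 5 genes most like Dchs1 in experiment 2 were Rrp1 (r = 0.99), Rptor (0.99), Rabggta (0.99), Rpap1 (0.99) and Caly (0.99), over 12 rats and without a p, since they were picked from 8654 genes. Rptor is a subunit of the growth regulator mTORC1, and Rpap1 binds RNA polymerase II. Celsr3 ranked 16 in that order, Celsr2 949, Fjx1 2589, Fat4 3964, Fat1 4307 and Fat3 4678. In experiment 1 the nearest genes over 10 rats were Edrf1 (0.98), Rbbp8 (0.94), Plce1 (0.92), Ptpn12 (0.92) and Sult1a1 (0.91). The member nearest to Dchs1 there, again Celsr3, ranked 556. No gene was among the 5 of both experiments.

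Markers of other cells moved with the same members in experiment 2. The sum of 8 microglial markers, all listed and none at 0 in all rats, was 195 to 450 CPM after water gavage and 173 to 363 CPM after EtOH gavage, and its r with Dchs1 was 0.88 (exact permutation p = 9.07e-05, adjusted over all genes p = 0.000794, rho 0.89 with exact permutation p = 0.000502, and r 0.86 without the 2 farthest rats). The sum of 7 cortical neuron markers, none at 0 in all rats, ranged from 7.24 to 559 CPM and from 5.65 to 431 CPM in these groups. Its r with Dchs1 was 0.75 (exact permutation p = 0.00669, adjusted over all genes p = 0.0185, rho 0.60 with exact permutation p = 0.0492). Without the 2 farthest rats it was 0.53, so that relation rests on them. For Celsr2 and Celsr3 r went from 0.79 and 0.77 to 0.59 and 0.61 without them. For Fjx1 it was 0.89 (exact permutation p = 0.000451, adjusted over all genes p = 0.0143) and still 0.82 without them. These movements too were common, since 32.1% of all tested genes rose and 31.8% fell with the microglial sum, and 28.9% rose and 27.4% fell with the cortical sum, at an adjusted p of 0.05, so nothing particular to the members is read from them. Of the 84 pairs of 7 members with 12 library measures, 12 had an adjusted p under 0.05 over those pairs, and these paired Dchs1, Celsr2, Celsr3 and Fjx1 with the share and with those 2 sums. Without the 2 rats farthest from the median of each measure, 0 of the 84 pairs passed, with fewer rats and permutations left. Ependymal markers, of which 5 of 7 were listed, summed to only 4.43 to 46.1 CPM after water gavage and 7.25 to 21.3 CPM after EtOH gavage. The part of any of these cells in the levels of the members was not tested.

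Genes that work with the family were taken from 4 lists. Of the partners of Fat and Dchs proteins, 6 were tested in each experiment and 0 passed an adjusted p of 0.05 in edgeR's test, with a median log2 fold change of 0.02 in experiment 1 and 0.06 in experiment 2, beside -0.00 and 0.00 over all genes. The extremes in experiment 1 were Mpdz, a scaffold with many PDZ domains (0.17, SE 0.13), and Mpp5, a scaffold of apical polarity (-0.13, SE 0.09). In experiment 2 Mpp5 was at the top of the list (0.44, SE 0.28) and Evl, which elongates actin filaments, at the bottom (-0.41, SE 0.21).

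Planar cell polarity genes gave 0 of 11 calls in experiment 1 and 0 of 9 in experiment 2, with medians of -0.05 in both. Ryk, a Wnt receptor, was highest in experiment 1 (0.21, SE 0.13) and Dvl2, a cytoplasmic transducer of Wnt signals, lowest (-0.24, SE 0.12). In experiment 2 the Celsr partner Fzd3 was highest (0.34, SE 0.31) and the scaffold Scrib lowest (-0.91, SE 0.54). Of the 9 genes in experiment 2, 5 fell and 3 rose with the share of outside reads at an adjusted p of 0.05 by exact permutation. Their r ran from -0.95 for Dvl1 to 0.90 for Fzd3. Of all tested genes, 33.1% fell and 32.8% rose.

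Hippo pathway genes gave 0 of 15 calls in experiment 1, where 2 had an unadjusted p under 0.05, both higher, and 0 of 14 in experiment 2. Their medians were 0.04 and 0.14. The target gene Ctgf was highest in experiment 1 (0.36, SE 0.16, adjusted p = 0.866 by edgeR) and the kinase Lats2 lowest (-0.36, SE 0.18). Mob1b, which activates Lats kinases, was highest in experiment 2 (0.38, SE 0.27) and Amotl2, which binds Yap1, lowest (-0.31, SE 0.25). With the share of outside reads, 3 of the 14 fell and 5 rose, beside 33.1% and 32.8% of all tested genes.

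Of other cadherins, 25 were tested in each experiment and 0 were called, with medians of 0.02 and -0.02. Cdh23, a long cadherin of hair cell tip links, was highest in experiment 1 (0.48, SE 0.20, adjusted p = 0.866 by edgeR), and the protocadherin Pcdh11x was lowest (-0.28, SE 0.16). In experiment 2 the highest was Cdhr1, known from photoreceptors (0.32, SE 0.28), and the lowest was Cdh22 (-0.67, SE 0.38). Here 6 of 25 fell and 7 rose with the share, from Clstn1 with an r of -0.95 to Pcdh11x with 0.91. Each of the 4 lists thus held genes that fell and genes that rose with the share, the partners 2 and 2 of 6. Of the 7 members, 4 fell and 0 rose, and those 4 moved together. Over all tested genes of experiment 2, 33.1% fell and 32.8% rose, and nothing particular to the lists or the family is read from these counts.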

How the data were processed

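Alignment by the authors was to rn6 with TopHat2 2.0.13, htseq-count then tallied reads per gene, and the deposited values are raw read counts per gene symbol and rat, neither normalized nor filtered. Neither the options of htseq-count nor its annotation is given in the sources used here. HTSeq, the package of htseq-count, is listed there in versions 0.5.3p3 and 0.6.0. The 5 summary lines were left out of the fits, and the reads tallied there as on no feature, the outside reads, served as a library measure. Reads with more than 1 alignment were tallied apart and do not enter gene counts.

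Genes were tested where their base mean exceeded the median over the listed genes (43.6 in experiment 1, 66.4 in experiment 2). The quasi-likelihood test of edgeR 4.0.16, run under R 4.3.3 for either experiment alone, used TMM factors, default arguments and Benjamini-Hochberg adjustment over all tested genes. Standard errors were derived from the F statistic. Correlations used log2 CPM with a prior count of 2 after subtraction of group means, and all permutations within groups were enumerated, 14400 and 518400 in number, with smallest possible p of 6.94e-05 and 1.93e-06. The test of the slope on the share of outside reads and the adjustment over all genes, for the share, for Dchs1 and for 2 marker sums, were added after seeing the data. The fits were also run on simulated counts. Each gene varied on its own there, unlike the genes of experiment 2, so no conclusion is drawn from those runs.

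Members and lists were chosen with earlier results of these data known. Named beyond the members were the genes with the highest and the lowest fold change of each list. Also named were the 5 genes most like Dchs1 in each experiment, and markers that the paper ranks near the top. The extremes of r with the share and 2 libraries were chosen after their values were seen. Libraries of a group differed by more than sampling noise (chi-square per degree of freedom at least 2.67). Replicates carry only a number in the labels, so p-values measure the spread between these samples. Intervals of 2 standard errors and read limits cover no other error. Alternatives were DESeq2 1.42.0, its size factors in edgeR, other filters, the newer quasi-likelihood mode, all 4 groups in 1 fit, a replicate block, leaving out single rats, and the share as a covariate.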

Additional observations from a re-analysis of the deposited data

Results flagged for a closer look

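The levels of the 8 listed members, the reads on genes and the share of outside reads were scanned in each group for 1 rat far from the others. Of 40 groups, 3 held such a rat, where about 2 would by chance. Fat3 had 219 CPM in EtOH replicate 2 of experiment 1, against 132 to 153 CPM in the other 4 rats, so that 0.751 of the whole range lay in the gap. Fat2 had 1.44 CPM, or 12 reads, in water gavage replicate 4, against 0 to 0.448 CPM in the others, and 4.40 CPM, or 36 reads, in EtOH gavage replicate 5, against 0 to 0.764 CPM. For Fat2 the gaps took 0.688 and 0.826 of the range.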

How the results depend on the processing

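Of 400 values recomputed under other settings, 382 kept their direction and side of the threshold or stayed within the spread of the rats. That rule was easily met, since no member was called under any setting. In experiment 2 it counted Dchs1 as kept at -0.0093 against -0.42, and Celsr2 at -0.036 against -0.78. The count is therefore no measure of how stable the fold changes are. The counts of members, of all genes and of list genes called at an adjusted p of 0.05 were 0 under every setting run, in either experiment. With the share of outside reads as a covariate in experiment 2, the log2 fold change turned to 0.13 for Dchs1, -0.053 for Fat1, 0.026 for Celsr3 and 0.040 for Fjx1, and without the 2 rats with the highest share (added after seeing the data) that of Fat1 turned to -0.046. The cause was not tested. Leaving out each rat in turn gave -0.75 to -0.20 for Dchs1 in experiment 2 and 0.38 to 0.49 in experiment 1. In those fits some values near 0 changed sign, with ranges of -0.025 to 0.065 for Celsr3, -0.15 to 0.038 for Celsr2 and -0.014 to 0.19 for Fat4 in experiment 1, and of -0.059 to 0.081 for Fat1 and -0.17 to 0.0080 for Fat3 in experiment 2. Of the pairs of member and measure in experiment 2, 12 passed the adjusted threshold, 10 did with DESeq2's size factors and 0 did without the 2 rats farthest from the median of the measure, where fewer rats and permutations are left.

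With the replicate number as a replicate block, Dchs1 had 0.44 in experiment 1 and -0.58 in experiment 2, Celsr2 had -0.93 in experiment 2, and 0 members were called. Rats with the same number had deviations correlated at -0.13 to 0.14 in experiment 1 and -0.76 to 0.84 in experiment 2, and in each experiment 1 EtOH rat correlated best with its own number, so the numbers were not read as a pairing.

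The counts limit Fat2, with at most 36 reads in a rat, and Dchs1 in experiment 2, with as few as 24.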
